A study of Mus musculus with 15 samples.

Results

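Hepatocytes store fatty acids as triglyceride in lipid droplets, and 10 genes of that route were followed across mouse livers lacking a JNK kinase, with or without NEMO in hepatocytes. The genes were Plin2, Plin4, Plin5, Cidec, Cd36, Lpin1, Lpin2, Dgat2, Pnpla2 and Pnpla3, chosen by name as droplet and triglyceride storage genes. Each was read by 1 probe set, and together they made 10 of the 19938 genes measured. As background, fatty acids enter the cell with the help of carriers such as CD36 and are joined to glycerol stepwise. Lipins remove phosphate from phosphatidic acid to give diacylglycerol, and DGAT2 adds the last fatty acid. The triglyceride collects in droplets coated by perilipins and enlarged by CIDE proteins, and PNPLA2 begins its breakdown.

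The samples were 15 whole livers, 1 array per mouse and 3 mice per group, from C57BL/6 mice on chow killed at 8 weeks, all labelled male. NEMO/Jnk1 DKO mice combined deletion of NEMO with a constitutive Jnk1 knockout. NEMO/Jnk2 DKO mice carried the same NEMO deletion on a constitutive Jnk2 knockout. Jnk1 KO and Jnk2 KO mice lacked a JNK kinase in all cells and kept NEMO. WT mice were labelled NEMO f/f, meaning floxed NEMO that was not deleted, and the labels give no floxed allele for the single knockouts. NEMO (gene Ikbkg) is the regulatory subunit of the kinase that activates NF-kB, and JNK1 and JNK2 are the stress kinases encoded by Mapk8 and Mapk9. The deletion of NEMO was driven by Alb-cre, active in hepatocytes, so other liver cells kept NEMO, whereas the JNK genes were absent from every cell type. No group with NEMO deletion alone was analysed here. Values are log2 probe-set levels, so a difference of 1 is a doubling. Levels of different genes come from different probes and are not compared.

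The label checks bear on everything that follows. Mapk9 read 2.39 to 3.28 in the 6 livers labelled as lacking Jnk2, against 7.41 to 7.67 in the other 9. Mapk8 read 5.87 to 6.53 in the 6 livers labelled as lacking Jnk1, against 6.58 to 7.03 in the other 9. The reading of 6.53 was NEMO/Jnk1 DKO replicate 3, just under the other 9, and the rest of the 6 read 5.87 to 6.23. That array also had the highest Ikbkg of the double knockouts, 6.85, and its label was kept. Ikbkg read 6.18 to 6.85 in the 6 double-knockout livers. It read 7.03 to 7.41 in 7 of the 9 livers labelled as keeping NEMO, and 6.75 in the library labelled Jnk1 KO replicate 1 and 6.24 in the library labelled Jnk2 KO replicate 3, which are below that range. These 2 arrays also read 8.66 and 8.21 for Mmp12, a macrophage elastase, against 7.54 to 8.96 in the double knockouts and 3.69 to 4.88 in the other 7 arrays. They are called the doubted arrays below, and the members' results that turn on them are given with all 15 arrays as labelled and with the 13 that remain without them. Counts for lists of other genes are given without them, with the as-labelled counts beside. Setting them aside used the same contrast that separates double from single knockouts, so the second reading of that contrast is not independent evidence. Their Cd36 and Dgat2 readings, given below, were also like the double knockouts and were among those that raised the doubt. The differences of Cd36 and Dgat2 without these arrays therefore follow in part from that choice. Comparisons of a double knockout with WT keep the same difference in both readings, and the estimate of spread is what changes. Separately, 3 arrays had high Xist and low Y-linked transcripts against their male label: NEMO/Jnk1 DKO replicates 1 and 2 and the library labelled Jnk1 KO replicate 1. The array of the NEMO/Jnk1 DKO group with the male pattern was thus replicate 3, whose Mapk8 reading is given above. The marker genes of hepatocytes were high throughout, with a mean log2 level of 12.2 to 12.4 over 11 genes in every array, and no array stood apart in its median, 4.26 to 4.38.

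Start regions of 4 of the members that the results turn on are shown first, because NF-kB and AP-1, the factor that JNK phosphorylates, act through short DNA motifs. RefSeq windows of build GRCm38.p6, 250 bases before to 50 after a start, were at hand for 9 of the 10 genes, 13 windows in all. Dgat2 had none, and the Lpin1 window is not printed. The 4 printed here run 5′ to 3′ on the minus strand, with capitals marking a motif. They lie at chr5:17835847-17836146 for Cd36, chr6:113434715-113435014 for Cidec, chr4:86670010-86670309 for Plin2 and chr17:56109733-56110032 for Plin4. The Cd36 window lies inside the annotated gene, chr5:17781690-17888959, and the printed Cidec window inside its gene, chr6:113424634-113435760.
Cd36: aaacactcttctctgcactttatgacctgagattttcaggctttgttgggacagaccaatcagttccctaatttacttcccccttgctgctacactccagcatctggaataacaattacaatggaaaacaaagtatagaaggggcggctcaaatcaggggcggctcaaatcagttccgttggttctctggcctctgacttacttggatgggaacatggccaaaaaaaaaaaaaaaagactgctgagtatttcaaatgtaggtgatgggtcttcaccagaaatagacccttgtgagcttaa
Cidec: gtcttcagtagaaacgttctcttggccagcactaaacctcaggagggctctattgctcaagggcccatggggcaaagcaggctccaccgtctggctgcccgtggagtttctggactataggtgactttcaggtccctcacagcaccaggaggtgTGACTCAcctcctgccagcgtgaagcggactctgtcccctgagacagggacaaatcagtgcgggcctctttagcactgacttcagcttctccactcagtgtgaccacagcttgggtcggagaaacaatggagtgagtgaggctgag
Plin2: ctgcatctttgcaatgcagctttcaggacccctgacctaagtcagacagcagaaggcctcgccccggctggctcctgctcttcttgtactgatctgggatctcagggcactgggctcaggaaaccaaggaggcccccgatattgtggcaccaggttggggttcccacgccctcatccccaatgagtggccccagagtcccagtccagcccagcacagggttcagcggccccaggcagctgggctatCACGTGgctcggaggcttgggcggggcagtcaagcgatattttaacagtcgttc
Plin4: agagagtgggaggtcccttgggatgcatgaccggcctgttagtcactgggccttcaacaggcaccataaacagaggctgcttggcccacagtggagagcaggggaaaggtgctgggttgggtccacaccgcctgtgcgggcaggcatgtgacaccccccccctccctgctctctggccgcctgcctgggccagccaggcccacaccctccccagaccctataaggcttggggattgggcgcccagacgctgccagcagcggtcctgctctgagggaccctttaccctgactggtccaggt

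The windows were searched on both strands for 5 motif patterns, where N is any base. The AP-1 pattern TGANTCA was in 2 of the 13 windows, this Cidec window from position -96 relative to the start and a window of Plin5 from position -11, and in 7.81% of all 32851 windows. The NF-kB pattern, GGGAN followed directly by TTNCC, was in 0 of the 13 and in 1.2% of all windows. The direct repeat AGGTCA, 1 base of any kind and AGGTCA again, the pattern of PPAR and RXR pairs, was in 0 of the 13 and in 0.0396% of all windows. A looser form that contains every match of it, with AGGNNA in place of each AGGTCA, was in the other start region of Cidec, which is not printed, and in 2.87% of all windows. The E-box CACGTG was in the Plin2 window from position -4, in a window of Lpin2 from position -9, and in 7.15% of all windows. The printed Cd36 and Plin4 windows held none of these letters, and a match is a description of the sequence and not of binding.

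With the arrays as labelled, few members passed the test. Called means a Benjamini-Hochberg adjusted p below 0.05 in limma, adjusted over all 19938 genes. In NEMO/Jnk2 DKO against WT livers, Cd36 rose and Dgat2 fell, 2 of the 10 members, where 2.63% of all genes were called. In NEMO/Jnk1 DKO against WT livers 0 of 10 were called, where 0.0652% of all genes were, and 4 had an unadjusted p below 0.05, as did 16.3% of all genes. The comparisons of a double knockout with its own single knockout called 0 of 10 each. For NEMO/Jnk1 DKO against Jnk1 KO livers, 0% of all genes were called, and 2 members and 4.55% of all genes had an unadjusted p below 0.05. For NEMO/Jnk2 DKO against Jnk2 KO livers, 0.00502% of all genes were called, and 4 members and 7.91% of all genes had an unadjusted p below 0.05. Both of these set the double knockouts against a group that holds a doubted array.

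Without the doubted arrays, 6 of the 10 members differed somewhere among the 5 groups, where 11.3% of all genes did, and as labelled 0 of 10 did, where 0.607% of all genes did and 5 members and 14.1% of all genes had an unadjusted p below 0.05. The 6 were Cd36, Dgat2, Plin4, Cidec, Lpin1 and Plin2, and the other 4 members (Plin5, Lpin2, Pnpla2 and Pnpla3) were called in none of the comparisons of either reading. NEMO/Jnk1 DKO against Jnk1 KO livers then called 2 of 10, where 5.18% of all genes were called, and NEMO/Jnk2 DKO against Jnk2 KO livers called 6 of 10, where 5.85% were. Against WT livers, NEMO/Jnk1 DKO livers called 2 of 10, where 7.91% of all genes were called, and NEMO/Jnk2 DKO livers called 4 of 10, where 10.6% were. The double-knockout comparisons with WT share the 3 WT arrays. In 3 members, Cd36, Dgat2 and Plin2, the 6 double-knockout arrays did not overlap the 7 other arrays with NEMO intact, and 6.50% of all genes separated in this way.

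**Figure D1:**
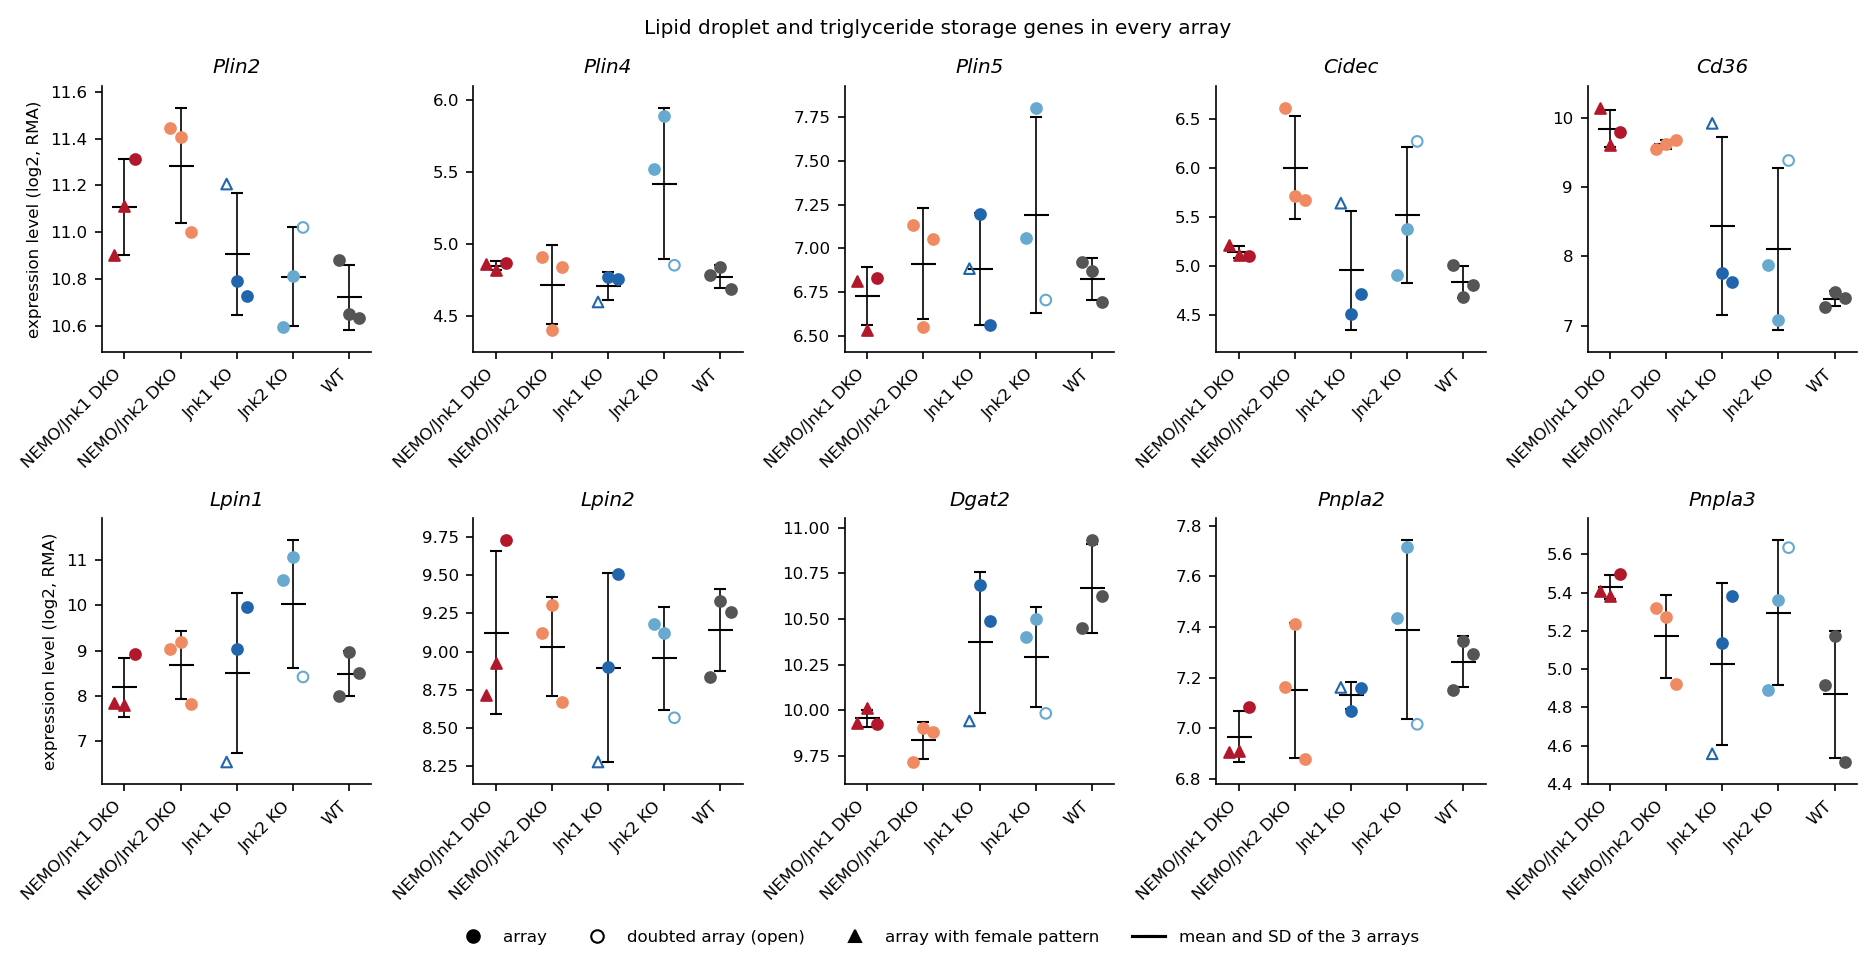
Log2 level of each of the 10 genes (vertical axes, 1 panel per gene) in each array, by labelled group, with bars for the mean ± SD of 3 arrays. Open marks are the 2 doubted arrays and triangles the 3 arrays with high Xist, and in the Cd36 panel the open marks at 9.92 and 9.38 stand near the double knockouts and apart from the other single-knockout arrays, at 7.08 to 7.87.

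Cd36, the fatty acid carrier that macrophages also use as a scavenger receptor, differed from WT by more than any other member in both double knockouts. It read 10.13, 9.60 and 9.79 in NEMO/Jnk1 DKO livers and 9.54, 9.62 and 9.67 in NEMO/Jnk2 DKO livers. It read 7.75 and 7.63 in the other 2 Jnk1 KO livers, 7.87 and 7.08 in the other 2 Jnk2 KO livers, and 7.27, 7.49 and 7.40 in WT livers, with 9.92 and 9.38 in the doubted arrays labelled Jnk1 KO and Jnk2 KO. The 6 double-knockout livers were thus all above every other liver, the doubted arrays apart, of which the Jnk1 KO one lay inside their range and the Jnk2 KO one just under it.

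Against WT, Cd36 was 2.22 higher on the log2 scale in NEMO/Jnk2 DKO livers (SE 0.55, 95% interval 1.04 to 3.41, limma adjusted p = 0.0493), a 4.67-fold difference. NEMO/Jnk1 DKO livers were 2.45 above WT (SE 0.55), 5.48-fold, with a limma adjusted p of 0.0962 as labelled and 1.13e-05 without the doubted arrays. Without those arrays Cd36 rose by 2.15 in NEMO/Jnk1 DKO against Jnk1 KO livers (SE 0.19, limma adjusted p = 8.51e-05) and by 2.14 in NEMO/Jnk2 DKO against Jnk2 KO livers (SE 0.19, limma adjusted p = 5.92e-05). As labelled the same differences were 1.41 and 1.50, with SE 0.55 each and limma adjusted p of 0.962 and 0.563. Cd36 was among the readings that raised the doubt, so the larger rises without those arrays follow in part from that choice. The increase did not differ detectably between the JNK backgrounds: the difference of the differences was 0.01 without the doubted arrays (95% interval -0.58 to 0.61, limma adjusted p = 0.999). Within NEMO/Jnk1 DKO livers, the array with the male pattern read 9.79, between the arrays with high Xist at 10.13 and 9.60. With a term for that pattern, the NEMO/Jnk1 DKO minus WT difference of Cd36 was 1.69 (limma adjusted p = 0.817). The NEMO/Jnk2 DKO minus WT difference stayed at 2.22 (limma adjusted p = 0.0207). The term draws in part on the doubted Jnk1 KO array, which also had high Xist. That array read 9.92 for Cd36, against 7.75 and 7.63 in the rest of its group, so the term cannot separate the Xist pattern from the doubt. With this term and without the doubted arrays, the NEMO/Jnk1 DKO estimate rests on the array with the male pattern alone. Cd36 was then 2.40 higher in NEMO/Jnk1 DKO than in WT livers and 2.09 higher than in Jnk1 KO livers. Leaving out the 3 arrays with high Xist keeps the same 1 NEMO/Jnk1 DKO array, assumed to vary like the other groups. The difference from WT was then again 2.40, so it is not a separate reading. Of 12 genes known to be higher in female than in male mouse liver, 5 rose in NEMO/Jnk1 DKO against Jnk1 KO livers and 1 rose in NEMO/Jnk2 DKO against Jnk2 KO livers without the doubted arrays, where 5.18% and 5.85% of all genes were called. As labelled 0 of the 12 were called in either comparison, with 1 in each at an unadjusted p below 0.05. Their part in the Cd36 result was not tested beyond this term.

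Markers of other liver cells moved beside Cd36. In a whole liver, a change in the number of cells of a type and a change in RNA per cell cannot be told apart. The mean log2 level of 14 macrophage markers ranged from 7.19 to 7.61 in NEMO/Jnk1 DKO livers, 7.12 to 7.55 in NEMO/Jnk2 DKO livers, 6.18 to 7.44 in Jnk1 KO livers, 6.29 to 7.35 in Jnk2 KO livers and 5.84 to 6.31 in WT livers, with no overlap between double knockouts and WT. Without the doubted arrays 7 of the 14 rose in NEMO/Jnk1 DKO against Jnk1 KO livers and 6 of the 14 rose in NEMO/Jnk2 DKO against Jnk2 KO livers, among them Mmp12 by 4.44 and 4.31 and Gpnmb, a lysosomal glycoprotein of lipid-laden macrophages, by 2.50 and 2.79 on the log2 scale. In these comparisons 5.18% and 5.85% of all genes were called, and 16.8% and 18.1% had an unadjusted p below 0.05. Mmp12, counted among the macrophage markers, helped to mark the doubted arrays, so its rise without them follows from that choice and is not evidence. Of 10 stellate cell markers, 6 and 5 rose in these comparisons, with Col1a1, a fibrillar collagen chain, higher by 2.13 and 2.29. As labelled 0 of the macrophage and 0 of the stellate cell markers were called in these comparisons, with 6 and 7 macrophage markers and 4 and 1 stellate cell markers at an unadjusted p below 0.05. The 7 endothelial and 11 hepatocyte markers had 0 called in either comparison, with 1 and 0 at an unadjusted p below 0.05 among the endothelial genes and 0 and 2 among the hepatocyte genes. Adipocyte markers were low, with Adipoq, the adipocyte hormone, at 2.10 to 2.96 in all arrays, and 0 of 5 were called in either comparison, with 0 at an unadjusted p below 0.05. The part of other cells in the Cd36 result was not tested.

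**Figure D2:**
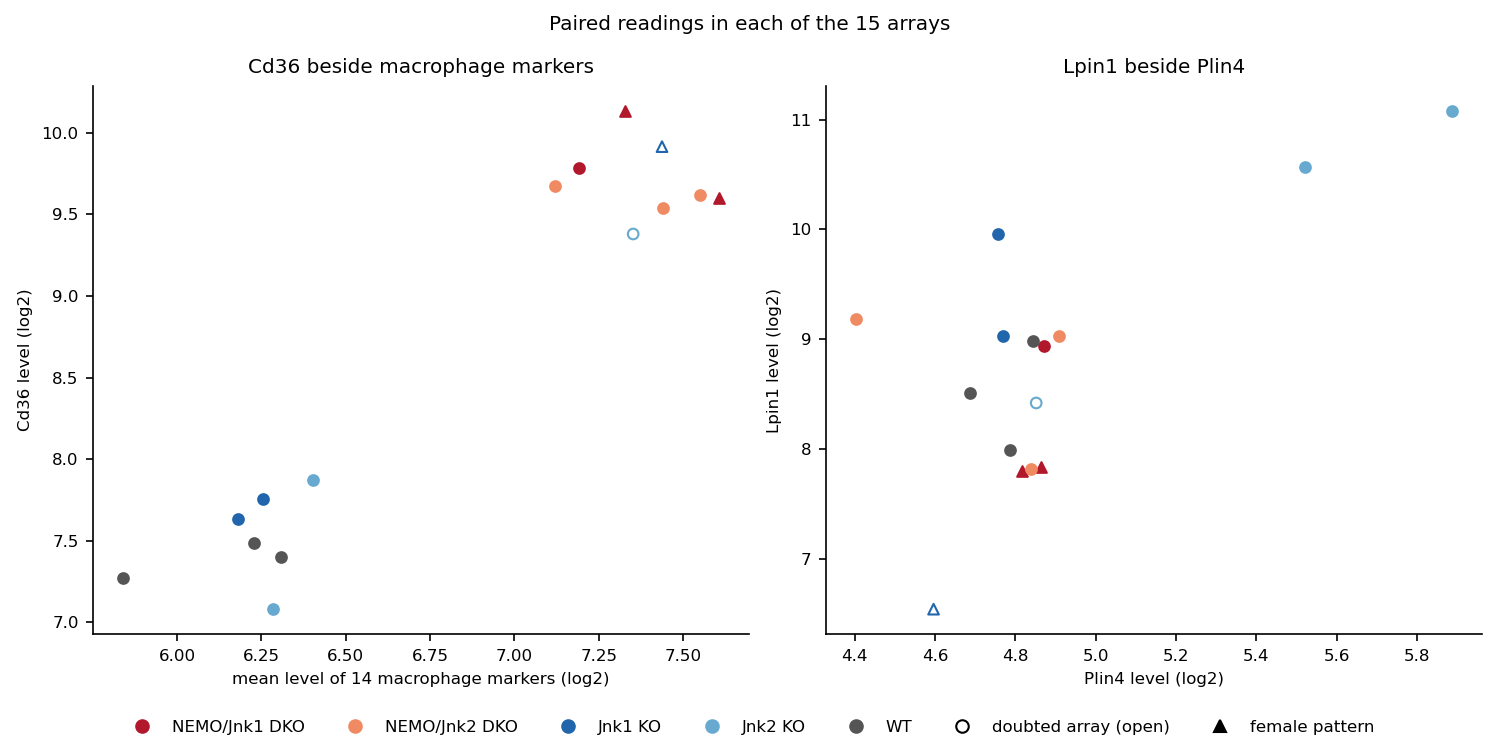
Left, log2 level of Cd36 (vertical) against the mean log2 level of the 14 macrophage markers (horizontal) in the 15 arrays, and right, Lpin1 against Plin4, with open marks for the doubted arrays. The 6 double-knockout arrays lie at 9.54 or more for Cd36 and 7.12 or more for the markers, the WT arrays at or below 7.49 and 6.31, and the highest Lpin1 and Plin4 readings are those of Jnk2 KO replicates 1 and 2.

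Dgat2, which makes triglyceride from diacylglycerol at the endoplasmic reticulum and the droplet, moved the other way. It read 9.93, 10.01 and 9.93 in NEMO/Jnk1 DKO livers, 9.72, 9.90 and 9.88 in NEMO/Jnk2 DKO livers, and 10.45, 10.93 and 10.63 in WT livers. The 4 single-knockout livers outside the doubted arrays read 10.40 to 10.69, above every double knockout and overlapping WT, and the doubted arrays read 9.94 and 9.98. Dgat2 fell by 0.83 in NEMO/Jnk2 DKO against WT livers (SE 0.18, limma adjusted p = 0.0325), to 0.561 of the WT level. With single arrays left out in turn, the NEMO/Jnk2 DKO against WT call was kept in 9 of 15 fits for Dgat2 and 5 of 15 for Cd36, and was lost for both without any 1 of the NEMO/Jnk2 DKO or WT arrays. Over all alternatives the limma adjusted p ran from 0.000577 to 0.139 for Dgat2 and from 1.02e-05 to 0.156 for Cd36. The NEMO/Jnk1 DKO minus WT difference was -0.71 (SE 0.18), with a limma adjusted p of 0.116 as labelled and 0.00218 without the doubted arrays. Without those arrays the differences from the matched single knockouts were -0.63 for Jnk1 (limma adjusted p = 0.0124) and -0.61 for Jnk2 (limma adjusted p = 0.014). As labelled they were -0.42 and -0.46, with limma adjusted p of 0.962 and 0.577. Dgat2 too was among the readings that raised the doubt, so the larger falls without the doubted arrays follow in part from that choice. With a term for high Xist and without the doubted arrays, the NEMO/Jnk1 DKO estimate rests on its array with the male pattern alone. The difference was then -0.74 from WT and -0.66 from Jnk1 KO livers. With 1 array, that fit cannot decide whether both NEMO/Jnk1 DKO calls hold.

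Lpin1, a phosphatidic acid phosphatase that in mouse liver is also a nuclear co-activator of fatty acid oxidation genes, had the largest SD of the 10 members in each labelled group, 0.50 to 1.77. It read 7.84, 7.80 and 8.94 in NEMO/Jnk1 DKO livers and 9.03, 9.18 and 7.82 in NEMO/Jnk2 DKO livers. It read 6.54, 9.03 and 9.96 in Jnk1 KO livers and 10.57, 11.08 and 8.42 in Jnk2 KO livers, where 6.54 and 8.42 are the doubted arrays, and 7.99, 8.98 and 8.51 in WT livers. Jnk2 KO replicates 1 and 2 were thus above every other array, and the doubted Jnk1 KO array was the lowest. As labelled, Jnk2 KO minus WT was 1.53 (SE 0.79, limma adjusted p = 0.458). Without the doubted arrays Lpin1 rose by 2.33 in Jnk2 KO against WT livers (SE 0.44, limma adjusted p = 0.0222), 5.03-fold, and fell by 2.15 in NEMO/Jnk2 DKO against Jnk2 KO livers (SE 0.44, limma adjusted p = 0.0122). Both of those rest on 2 Jnk2 KO arrays. Jnk1 KO minus WT was 1.00 without the doubted array (95% interval 0.04 to 1.96, limma adjusted p = 0.976), and NEMO/Jnk1 DKO minus Jnk1 KO was -1.30 (limma adjusted p = 0.128).

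Lpin2, a phosphatidic acid phosphatase of the same family that is prominent in liver, gave no call. Its arrays ran from 8.67 to 9.72 in the 6 double knockouts, from 8.28 to 9.51 in the 6 single knockouts and from 8.83 to 9.33 in WT livers, so the groups overlapped. The lowest readings, 8.28 and 8.57, were those of the doubted arrays. As labelled, every Lpin2 difference from WT was between -0.24 and -0.02, and for NEMO/Jnk2 DKO minus WT the 95% interval was -0.77 to 0.56. The directions of Lpin2 did not hold across readings. Without the doubted arrays Jnk1 KO minus WT was 0.06 and Jnk2 KO minus WT 0.01, with limma adjusted p of 0.9998 and 0.993. With a term for high Xist, NEMO/Jnk1 DKO minus WT was 0.59 (95% interval 0.04 to 1.15, limma adjusted p = 0.822).

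Among the coat proteins, Plin2, the perilipin that hepatocytes keep on most of their droplets, was higher in double knockouts than in WT livers. Of the double knockouts it was called for NEMO/Jnk2 DKO livers only, and not with the arrays as labelled. It read 10.90, 11.11 and 11.31 in NEMO/Jnk1 DKO livers, 11.45, 11.41 and 11.00 in NEMO/Jnk2 DKO livers, and 10.88, 10.65 and 10.63 in WT livers. The gap was narrow: the lowest double knockout, at 10.90, was just above the highest WT liver, at 10.88, and the 4 single knockouts outside the doubted arrays read 10.60 to 10.81. The doubted arrays, labelled Jnk1 KO and Jnk2 KO, read 11.21 and 11.02, inside the range of the double knockouts. Plin2 was 0.56 higher in NEMO/Jnk2 DKO than in WT livers (SE 0.16, 1.48-fold), with a limma adjusted p of 0.0813 as labelled and 0.0177 without the doubted arrays. NEMO/Jnk1 DKO minus WT was 0.39 (SE 0.16), with limma adjusted p of 0.262 as labelled and 0.112 without those arrays. Against Jnk2 KO, the NEMO/Jnk2 DKO difference was 0.48 as labelled (limma adjusted p = 0.556) and 0.58 without the doubted array (limma adjusted p = 0.0419). Against Jnk1 KO, the NEMO/Jnk1 DKO difference was 0.20 as labelled (limma adjusted p = 0.962) and 0.35 without the doubted array (limma adjusted p = 0.259).

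Cidec, which fuses droplets into larger ones and is also known as Fsp27, was highest in NEMO/Jnk2 DKO livers. It read 5.22, 5.11 and 5.10 in NEMO/Jnk1 DKO livers, 6.61, 5.72 and 5.68 in NEMO/Jnk2 DKO livers, and 5.01, 4.69 and 4.81 in WT livers. Single knockouts read 4.50 and 4.72 for Jnk1 and 4.91 and 5.37 for Jnk2, and the doubted arrays 5.64 and 6.27, above them. The 3 NEMO/Jnk2 DKO livers were above all NEMO/Jnk1 DKO and WT livers, and replicate 1, at 6.61, stood apart from the other 2 of its group. NEMO/Jnk2 DKO minus WT was 1.17 (SE 0.34, 2.25-fold), with a limma adjusted p of 0.0825 as labelled and 0.00275 without the doubted arrays. NEMO/Jnk1 DKO minus WT was 0.31 (95% interval -0.42 to 1.04, limma adjusted p = 0.701) as labelled. With a term for high Xist it was -0.06 (limma adjusted p = 0.995), so its direction did not hold in 1 of 26 alternatives. That term draws in part on the doubted Jnk1 KO array, at 5.64. With the term and without the doubted arrays the difference was 0.27, resting on the NEMO/Jnk1 DKO array with the male pattern alone. NEMO/Jnk2 DKO minus Jnk2 KO was 0.48 as labelled (limma adjusted p = 0.765) and 0.86 without the doubted arrays (limma adjusted p = 0.0465). That call was lost with the term for high Xist added (limma adjusted p = 0.058). Neither of these groups holds an array with high Xist, so the term changed the estimate of spread and not the difference. NEMO/Jnk1 DKO minus NEMO/Jnk2 DKO, the direct comparison of the double knockouts, was -0.86 (95% interval -1.59 to -0.13), with limma adjusted p of 0.785 as labelled and 0.142 without the doubted arrays. In that comparison 0 of 10 members were called in both readings, where 0.105% of all genes were called as labelled and 0.321% without the doubted arrays. The member with an unadjusted p below 0.05 was Cidec in both, where 5.44% of all genes as labelled and 7.50% without the doubted arrays had one.

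Plin4, a perilipin best known from adipocytes, was highest in 2 of the 3 Jnk2 KO livers. It read 5.52 and 5.89 in Jnk2 KO replicates 1 and 2 and 4.85 in the doubted Jnk2 KO array. It read 4.86, 4.82 and 4.87 in NEMO/Jnk1 DKO livers, 4.91, 4.40 and 4.84 in NEMO/Jnk2 DKO livers, 4.60, 4.77 and 4.76 in Jnk1 KO livers and 4.79, 4.84 and 4.69 in WT livers. The 2 high arrays stood above all 13 others, which lay between 4.40 and 4.91.

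Jnk2 KO minus WT for Plin4 was 0.65 as labelled (SE 0.20, limma adjusted p = 0.194) and 0.93 without the doubted array (SE 0.14, limma adjusted p = 0.00817), 1.91-fold. NEMO/Jnk2 DKO minus Jnk2 KO was -0.70 as labelled (limma adjusted p = 0.512) and -0.99 without it (SE 0.14, limma adjusted p = 0.00165). Jnk1 KO minus Jnk2 KO was -0.71 as labelled (limma adjusted p = 0.291) and -0.94 without the doubted arrays (limma adjusted p = 0.0168). The difference between the NEMO contrasts on the Jnk1 and the Jnk2 background was 1.07 without the doubted arrays (95% interval 0.63 to 1.52, limma adjusted p = 0.14) and 0.85 as labelled (limma adjusted p = 0.9996). In that test 0 of 10 members were called and 1, Plin4, had an unadjusted p below 0.05 in both readings, where 0% of all genes were called as labelled and 0.0100% without the doubted arrays, and 2.75% and 6.59% had an unadjusted p below 0.05.

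Plin5, the perilipin that tethers droplets to mitochondria and holds PNPLA2 in check, lies next to Plin4 on chromosome 17 and gave no call. It read 6.53 to 6.83 in NEMO/Jnk1 DKO livers, 6.55 to 7.14 in NEMO/Jnk2 DKO livers, 6.56 to 7.20 in Jnk1 KO livers, 6.70 to 7.80 in Jnk2 KO livers and 6.69 to 6.92 in WT livers, so every group overlapped. Its highest reading, 7.80, was Jnk2 KO replicate 2, the array that also had the highest Plin4 and Lpin1. Jnk2 KO minus WT was 0.36 (95% interval -0.16 to 0.88, limma adjusted p = 0.575) as labelled and 0.60 (95% interval 0.10 to 1.11, limma adjusted p = 0.283) without the doubted array.

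The lipases gave no call either. Pnpla2, also known as Atgl, removes the first fatty acid from triglyceride, and it read 6.91 to 7.08 in NEMO/Jnk1 DKO livers, 6.88 to 7.41 in NEMO/Jnk2 DKO livers and 7.15 to 7.34 in WT livers. NEMO/Jnk1 DKO and WT livers did not overlap, but the difference of -0.30 (95% interval -0.64 to 0.04) had a limma adjusted p of 0.376, and 0.207 without the doubted arrays. Pnpla3, a droplet protein related to Pnpla2 and induced by feeding, read 5.38 to 5.50 in NEMO/Jnk1 DKO livers, 4.92 to 5.32 in NEMO/Jnk2 DKO livers and 4.51 to 5.17 in WT livers. Its NEMO/Jnk1 DKO minus WT difference was 0.56 (95% interval 0.08 to 1.04), with limma adjusted p of 0.24 as labelled and 0.062 without the doubted arrays. The doubted arrays read 4.56 and 5.63, the lower of them above 1 WT array only and the higher above all other arrays.

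**Figure D3:**
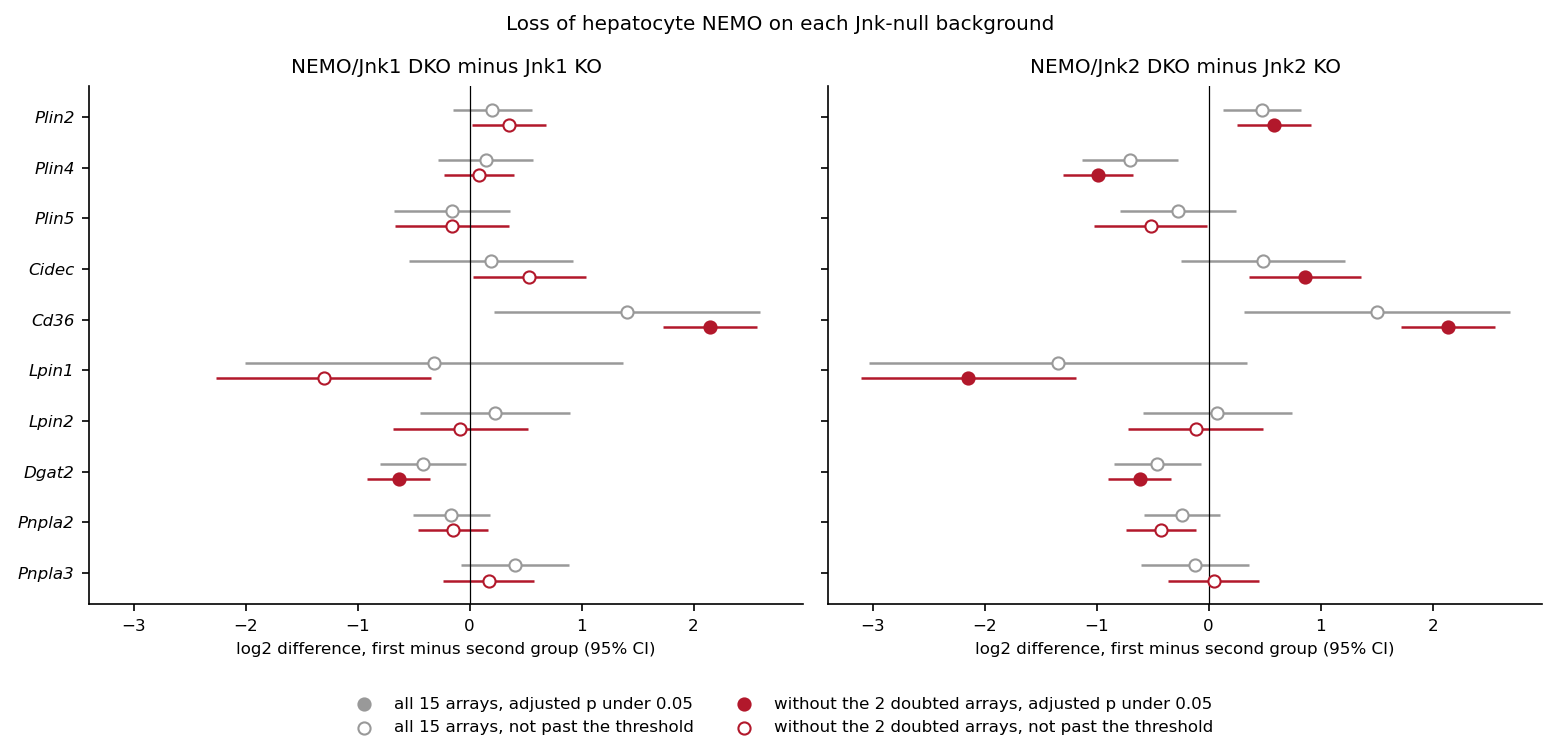
Log2 difference with 95% interval (horizontal) for each gene in NEMO/Jnk1 DKO minus Jnk1 KO (left) and NEMO/Jnk2 DKO minus Jnk2 KO (right), in grey with all 15 arrays and in red without the 2 doubted arrays, with filled marks for genes that were called. Cd36 stands at 1.41 and 1.50 with all arrays and at 2.15 and 2.14 without the doubted arrays, and Plin4 and Lpin1 lie left of 0 with filled marks in the right panel.

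The single knockouts were compared with WT and with each other. In Jnk1 KO against WT livers 0 of 10 members were called as labelled, where 0.0100% of all genes were, and 0 of 10 without the doubted array, where 0.0150% were. An unadjusted p below 0.05 was found for 0 members and 5.58% of all genes as labelled, and for 1 member, Lpin1, and 5.07% of all genes without the doubted array. In Jnk2 KO against WT livers 0 members were called as labelled, where 0.411% of all genes were, and 1 member and 12.1% of all genes had an unadjusted p below 0.05. Without the doubted array 2 members were called, Plin4 and Lpin1 described above, where 1.24% of all genes were called. In Jnk1 KO against Jnk2 KO livers 0 members were called as labelled, where 0.130% of all genes were, and 1 member and 7.00% of all genes had an unadjusted p below 0.05. Plin4 was the 1 member called in that comparison without the doubted arrays, where 0.597% of all genes were called. The median difference of the 10 members in Jnk2 KO against WT livers was 0.28 without the doubted array, beside a median of -0.04 over all genes. Single members ranged from -0.22 for Dgat2 to 2.33 for Lpin1, and the Jnk2 KO group then holds 2 arrays.

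**Figure D4:**
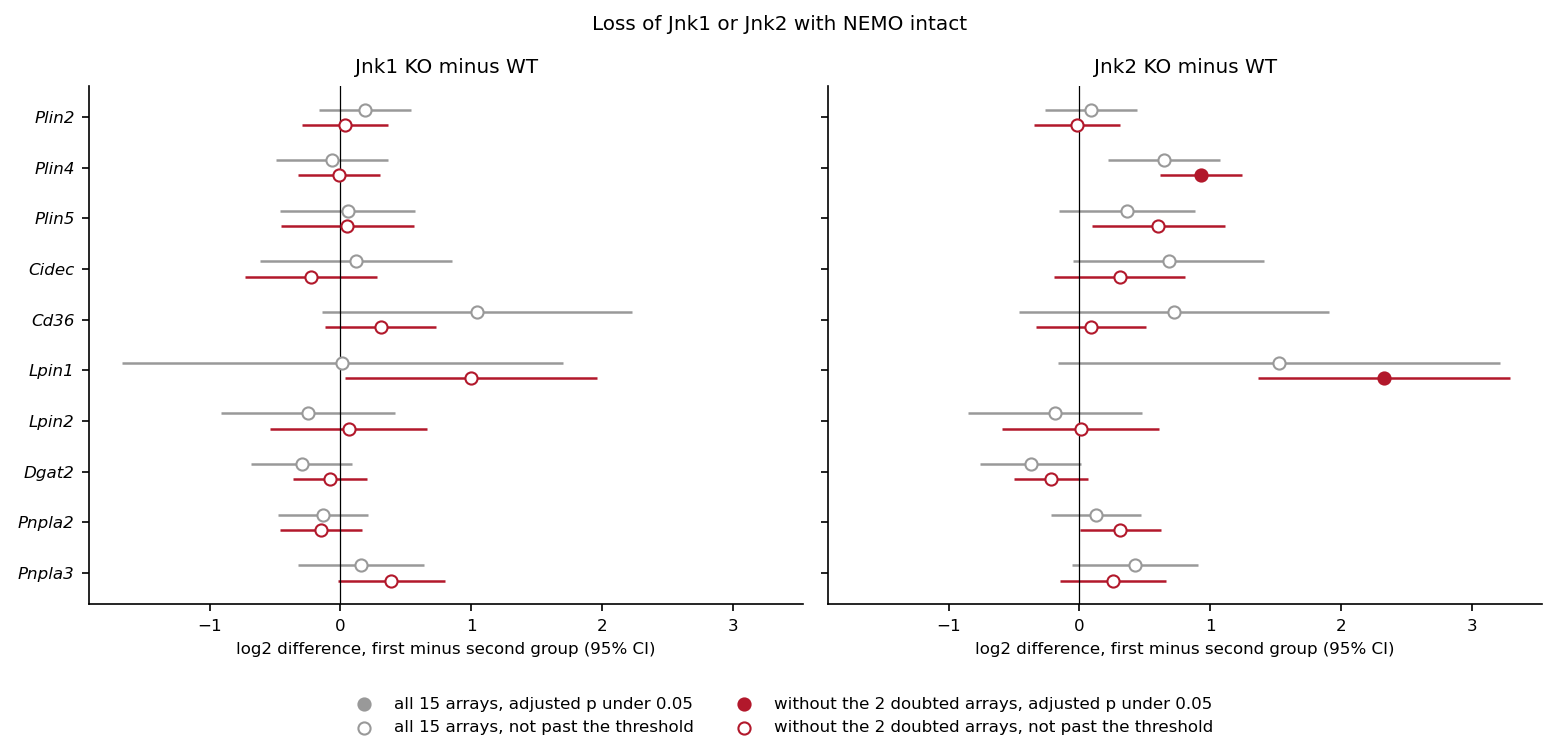
Log2 difference with 95% interval (horizontal) for each gene in Jnk1 KO minus WT (left) and Jnk2 KO minus WT (right), in grey with all 15 arrays and in red without the 2 doubted arrays, with filled marks for genes that were called. Plin4 at 0.93 and Lpin1 at 2.33 in the right panel are the filled marks.

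Other genes that change with feeding, fasting and time of day were read beside the Jnk2 KO result, since Lpin1 responds to all of these in mouse liver. In Jnk2 KO against WT livers without the doubted array, 1 of 12 fasting genes was called, Igfbp1, an insulin-repressed secreted protein, which rose by 1.41 (limma adjusted p = 0.0107). Of 10 lipogenic feeding genes 0 were called and 4 had an unadjusted p below 0.05, with Acaca, the first enzyme of fatty acid synthesis, at 0.91 (limma adjusted p = 0.0554). Of 15 clock genes 0 were called and 4 had an unadjusted p below 0.05, with Nr1d1, a repressor of the clock loop, at -1.79 (limma adjusted p = 0.221). The medians of the fasting, lipogenic and clock lists were 0.17, 0.41 and -0.16, beside -0.04 over all genes. In this comparison 1.24% of all genes were called and 12.9% had an unadjusted p below 0.05. As labelled 0 genes of these lists were called, and 1 fasting, 3 lipogenic and 4 clock genes had an unadjusted p below 0.05, as did 12.1% of all genes. In WT livers the mean log2 level of the 15 clock genes was 5.98 to 6.12. It was 5.66 to 6.18 in Jnk1 KO livers and 5.56 to 5.87 in Jnk2 KO livers. NEMO/Jnk1 DKO livers were at 5.58 to 5.82 and NEMO/Jnk2 DKO livers at 5.61 to 5.70. All arrays of Jnk2 KO and of both double knockouts were thus below every WT array. The times of death and feeding states were not given in the sources used here. Their part in the members' results, those against WT included, was not tested.

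Other genes of the storage route were read in 4 lists. Without the doubted arrays, NEMO/Jnk1 DKO against Jnk1 KO livers called 1 of 14 other droplet coat genes, Plin3, a soluble perilipin, higher by 0.48, 0 of 14 other synthesis genes (5 at an unadjusted p below 0.05), and 1 of 9 other lipolysis genes, Lipa, the lysosomal acid lipase, higher by 0.47. Of 12 other uptake genes 1 was called, Lpl, the lipoprotein lipase that releases fatty acids from circulating particles, higher by 1.68. In this comparison 5.18% of all genes were called and 16.8% had an unadjusted p below 0.05, so these few calls are close to the share of all genes called. The medians of these lists were -0.06, 0.07, -0.09 and -0.07, beside -0.01 over all genes. In NEMO/Jnk2 DKO against Jnk2 KO livers Plin3 rose by 0.50, Lipa by 0.40 and Lpl by 1.10, so Plin3, Lipa and Lpl were called on both JNK backgrounds. As labelled 0 genes of the 4 lists were called against the matched single knockout on either background. The coat, synthesis, lipolysis and uptake lists then had 1, 3, 1 and 2 genes at an unadjusted p below 0.05 on the Jnk1 background and 2, 1, 3 and 0 on the Jnk2 background.

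On the Jnk2 background further genes of the route were called, where 5.85% of all genes were. Of the 14 other coat genes 2 rose, Plin3 and Tmem159, which helps droplets form, by 0.57, and of the 14 other synthesis genes 1 rose, Nat8l, an acetyltransferase, by 0.57. Of the 9 lipolysis genes 2 rose, Lipa and G0s2, the inhibitor of PNPLA2, by 0.94, and 2 fell, the carboxylesterases Ces1d by 0.78 and Ces1f by 0.71. As labelled, Ces1d and Ces1f were also called lower in NEMO/Jnk2 DKO than in WT livers, Ces1d by 1.30 (limma adjusted p = 0.000751). That comparison includes the loss of Jnk2. As labelled, Jnk2 KO minus WT was -0.70 for Ces1d (limma adjusted p = 0.0519) and -0.67 for Ces1f (limma adjusted p = 0.114). Ces1d was 1.06 higher in NEMO/Jnk1 DKO than in NEMO/Jnk2 DKO livers without the doubted arrays (limma adjusted p = 0.000412). These carboxylesterases are near copies of each other, so their probe sets may share signal.

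Among 13 regulators of lipid metabolism, without the doubted arrays 3 fell in NEMO/Jnk1 DKO against Jnk1 KO livers: Mlxipl, the glucose-sensing factor ChREBP, by 1.09, Ppara, the receptor that drives fatty acid oxidation, by 0.50, and the co-activator Ppargc1b by 0.46. In NEMO/Jnk2 DKO against Jnk2 KO livers 2 of 13 fell, Ppargc1a, the co-activator of fasting metabolism, by 0.98 and Rxra, the partner of PPAR receptors, by 0.40. In these comparisons 5.18% and 5.85% of all genes were called. Pparg, a receptor that promotes fat storage and named here after its values were seen, lay the other way without a call, at 6.18 to 6.72 in the 6 double knockouts and 5.01 to 6.15 in the 7 other arrays with NEMO intact. Its differences were 0.94 on the Jnk1 background (limma adjusted p = 0.0866) and 0.70 on the Jnk2 background (limma adjusted p = 0.21). As labelled 0 of the 13 regulators were called, with 0 and 1 at an unadjusted p below 0.05. Of 12 fasting genes 2 rose on the Jnk1 background, Pdk4, which spares glucose from oxidation, by 1.96 and Igfbp1 by 1.76. On the Jnk2 background 1 rose, Pdk4 by 1.76, and 3 fell, G6pc by 1.12, Igfbp1 by 1.09 and Pck1 by 0.66, of which G6pc and Pck1 are enzymes of glucose production. The difference between the NEMO contrasts was called for Igfbp1 (2.84, limma adjusted p = 0.019). The single knockouts themselves differed in Igfbp1. Jnk1 KO minus Jnk2 KO was -3.02 without the doubted arrays (limma adjusted p = 9.61e-05) and -2.19 as labelled (limma adjusted p = 0.0443). Without the doubted arrays, Jnk1 KO minus WT was -1.61 (limma adjusted p = 0.051) and Jnk2 KO minus WT was 1.41. The NEMO contrasts of Igfbp1 thus start from single knockouts on opposite sides of WT. Of 10 lipogenic genes 1 rose on the Jnk1 background, the elongase Elovl6 by 0.86, and 2 fell on the Jnk2 background, Thrsp by 1.54 and the carboxylase Acacb by 0.71. All of these NEMO contrasts set the double knockouts against single-knockout groups of 2 arrays. As labelled 0 fasting and 0 lipogenic genes were called against the matched single knockouts, with 1 and 2 fasting genes and 2 and 1 lipogenic genes at an unadjusted p below 0.05 on the Jnk1 and Jnk2 backgrounds.

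The genes whose pattern over the 15 arrays was closest to Cd36, by root mean square difference after centring, were Uap1l1, Arhgap11a and Lgals1, at 0.27, 0.29 and 0.31 on the log2 scale, where Cd36 itself had an SD of 1.17. Uap1l1 read 7.37 to 7.73 in the 6 double knockouts, 7.70 and 7.39 in the doubted arrays and 5.38 to 5.83 in the other 7. Closest to Dgat2, with an SD of 0.37, were Nfix, Dmac2 and Mpnd, at 0.11, 0.12 and 0.13. Closest to Plin4, with an SD of 0.36, were Tbc1d8, Crym and Myo18a, at 0.16 each, and Tbc1d8 was highest in Jnk2 KO replicates 1 and 2, at 6.57 and 6.70, against 5.61 to 6.13 in the other 13 arrays. All points share the same arrays, so these are descriptions of likeness.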

How the data were processed

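RNA from 15 mouse livers was hybridised to Affymetrix gene arrays. The authors deposited log2 levels made with RMA, per the submitters' processing notes; the version was not given in the sources used here, and the log base was read from the values, 1.14 to 13.9. Of 35556 probe sets, 21789 had 1 gene symbol, 1621 several and 12146 none listed, and the probe set with the highest mean stood for each of 19938 genes.

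One mean per group was fitted over all 15 arrays with limma 3.58.1 (lmFit, eBayes) in R 4.3.3, with Benjamini-Hochberg adjustment over all genes, and the method was tested on simulated data. Replicates are separate mice, and 3 per group limits the precision. The members and gene lists were chosen with earlier results of these data known. Every member is named; of other lists, up to 4 called genes with the largest change, or the lowest p where none passed. Replicate numbers did not pair the arrays: same-numbered deviations correlated from -0.39 to 0.30. Alternatives changed normalization, filter, arrays and model terms. Promoter windows came from RefSeq GRCm38.p6.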

Additional observations from a re-analysis of the deposited data

Results flagged for a closer look

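Plin4 stood out in a pair of contrasts because every array moved one way in one of them and the opposite way in the other. Each NEMO/Jnk1 DKO array was above the Jnk1 KO mean of 4.71, and each NEMO/Jnk2 DKO array was below the Jnk2 KO mean of 5.42, so that the NEMO contrasts differed by 0.85 on the log2 scale (SE 0.28, limma adjusted p = 0.9996 as labelled). Each Jnk1 KO array was below the WT mean of 4.77 and each Jnk2 KO array above it, and the Jnk1 KO minus Jnk2 KO difference was -0.71 (limma adjusted p = 0.291 as labelled and 0.0168 without the doubted arrays). The Jnk1 KO arrays at 4.77 and 4.76 lay within 0.02 of the WT mean. Both patterns rest on Jnk2 KO replicates 1 and 2, at 5.52 and 5.89. Groups of 3 arrays were not searched for single outlying arrays.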

How the results depend on the processing

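The 17 differences of members called as labelled or without the doubted arrays kept their direction under all 26 alternatives. Of the other 73, 41 changed direction under at least 1, among them Cidec in NEMO/Jnk1 DKO minus WT (-0.06 with the sex term) and Lpin2 in all 4 differences from WT. The 4 alternatives that remove the doubted arrays or handle the female pattern were added after seeing the data. Counts of called members (out of 10) moved as follows. NEMO/Jnk2 DKO against WT called 2, and it called 4 with only the arrays compared, 1 with an intensity trend and robust prior, 1 with every probe set tested, 1 with the replicate block, 3 without the 3 arrays with the female pattern, 4 without the doubted arrays and 4 with the sex term added to that. Leaving out single arrays gave 0 to 4: 4 without Jnk1 KO replicate 1, 3 without Jnk2 KO replicate 3, 0 when any 1 NEMO/Jnk2 DKO or WT replicate was left out, and 1 without Jnk2 KO replicate 1 or any 1 NEMO/Jnk1 DKO replicate. NEMO/Jnk1 DKO against WT called 0, but 2 with only the arrays compared, 0 to 2 leaving out single arrays (2 without Jnk1 KO replicate 1), 2 without the doubted arrays and 1 with the sex term as well. NEMO/Jnk1 DKO against Jnk1 KO called 0, but 0 to 1 leaving out single arrays (1 without Jnk1 KO replicate 1), and 2 and 1 in these last settings. NEMO/Jnk2 DKO against Jnk2 KO called 0, but 0 to 1 leaving out single arrays (1 without Jnk2 KO replicate 3), and 6 and 5. Jnk2 KO against WT called 0, but 0 to 1 (1 without Jnk2 KO replicate 3), and 2 and 2. Jnk1 KO against Jnk2 KO called 0, but 0 to 1 (1 without Jnk2 KO replicate 3), and 1 and 1. The test across all 5 groups called 0, but 0 to 2 leaving out single arrays (Jnk1 KO replicate 1 or Jnk2 KO replicate 3), 6 and 6, and 1 without the 3 arrays with the female pattern. The cause was not tested, though the alternatives that leave out arrays also change the estimated spread. The replicate block changed no other count; the numbers do not pair the mice, and 3 arrays resembled most an array of their own number. Without the doubted arrays, single-knockout groups hold 2 arrays each.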
